A study of Mus musculus with 9 samples.

Results

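The genes described here are 10 circadian clock genes, taken by symbol from a table of read counts at transcription start sites (TSS) that holds 33844 genes; all 10 had a row and all 10 passed edgeR's expression filter. Of these, 8 are targets of the clock's activator at E-boxes (Dbp, Tef, Ciart, Per1, Per2, Per3, Nr1d1 and Nr1d2) and 2 form the opposite arm (Arntl and Npas2). The set was proposed with differences between P56 and P1 in these libraries in view, so its values in that contrast are given as a description and support nothing. The assay was ATAC-seq, where a transposase tags open DNA for sequencing. It was run on heart muscle cell nuclei from mice of the CD1 (ICR) strain on day 1 (P1), day 14 (P14) or day 56 (P56) after birth. There were 3 libraries a stage, biological replicates by the series' design text, and no genotype, allele or treatment is listed for any stage. Each library came from pooled hearts (12 at P1, 6 to 7 at P14 and P56), so the spread between libraries is one between pools and not between animals. Nuclei were sorted on Pcm1, a centrosomal protein found at the nuclear envelope of heart muscle cells. The growth protocol of every sample mentions operated animals, and whether these hearts came from such animals is not given. The time of day of collection, the sex and the batch are not given in the labels, so stage and hour of collection cannot be told apart.

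The mammalian clock is a feedback loop of transcription. A dimer of CLOCK (or its relative NPAS2) with ARNTL, also called BMAL1, binds E-boxes and switches on the genes of its own repressors, the PER and CRY proteins and CIART. It also switches on Nr1d1 and Nr1d2, whose products (REV-ERB alpha and beta) repress Arntl and Npas2 at ROR response elements, so the arms peak at opposite times of day. Dbp and Tef encode PAR bZIP factors that carry the rhythm to output genes at D-boxes. In the heart the clock sets daily rhythms of fuel use and ion channel expression, and rhythms of clock gene expression are known to grow in the weeks after birth.

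Total TSS counts ran from 1414979 to 2167369 in P1 libraries, 481217 to 893032 in P14 libraries and 874639 to 1468352 in P56 libraries. A level is given in CPM, the count scaled to the library's TMM-adjusted total, and compares libraries; it is not scaled to length, so levels are not compared between genes. The fullest 10% of TSS regions took 31.9% to 33.04% in P1 libraries, 34.1% to 35.3% in P14 libraries and 35.5% to 36.8% in P56 libraries of all counts. P1 replicate 1 had the lowest share, 31.93%, hardly below the 31.98% of P1 replicate 3, and P56 replicate 2 had the highest. P1 replicate 1 and P56 replicate 2 also held the lowest and highest mean level of 10 heart muscle markers, 54.6 and 239 CPM, with 84.3 to 129 CPM in the other 7. In P1 replicate 3 that mean was 114 CPM, so share and marker level did not rank the P1 libraries alike. The lists of markers of fibroblasts, endothelium, leukocytes, smooth muscle, epicardium and glia or neurons had means of 16.3 to 49.9 CPM, against a median of 18.9 CPM over all regions tested. No marker was at 0 in every library. The part of these library differences in the results below was not tested. Changes of the 8 E-box targets from P1 to P56 are given with and without P1 replicate 1 and P56 replicate 2. This was not done for every other result.

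Promoter sequence shows which clock elements lie near the annotated starts of these genes. RefSeq promoter windows of GRCm38.p6, from 250 bases before a start to 50 after it, were found for 9 of the 10 genes (12 windows; Per2 was not matched). The letters searched on both strands were CACGTG (E-box), CACGTT (E'-box), TTATGTAA and TTACGTAA (D-box), and TAGGTCA and TGGGTCA (ROR response element, RRE), none of which contains another. The E-box was in 4 of 12 windows, those of Tef, Ciart and Per1, and in 7.15% of all 32851 promoter windows. Ciart held 3 copies, with first bases at positions -116, -58 and -44 from its start, which 0.0883% of all windows did. The 250 bases before the start are printed for 4 genes because they hold the E-box or D-box matches, which are in capitals.
Ciart, chr3:95882229-95882478, minus strand: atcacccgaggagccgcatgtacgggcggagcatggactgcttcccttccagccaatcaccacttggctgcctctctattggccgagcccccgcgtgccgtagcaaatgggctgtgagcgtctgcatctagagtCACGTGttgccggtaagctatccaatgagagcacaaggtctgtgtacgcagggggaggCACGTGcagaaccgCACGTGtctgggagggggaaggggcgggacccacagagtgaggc
Per1, start 1, chr11:69098699-69098948, plus strand: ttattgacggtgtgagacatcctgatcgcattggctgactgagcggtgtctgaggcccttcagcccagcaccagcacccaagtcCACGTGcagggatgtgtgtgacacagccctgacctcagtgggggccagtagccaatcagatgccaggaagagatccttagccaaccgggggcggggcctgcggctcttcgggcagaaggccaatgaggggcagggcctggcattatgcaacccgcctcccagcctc
Tef, start 2, chr15:81811164-81811413, plus strand: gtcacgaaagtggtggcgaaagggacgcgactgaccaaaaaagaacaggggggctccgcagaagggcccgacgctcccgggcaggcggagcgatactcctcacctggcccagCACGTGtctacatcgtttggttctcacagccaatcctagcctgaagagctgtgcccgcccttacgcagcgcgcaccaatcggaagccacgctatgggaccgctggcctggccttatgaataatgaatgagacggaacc
Per3, chr4:151044666-151044915, minus strand: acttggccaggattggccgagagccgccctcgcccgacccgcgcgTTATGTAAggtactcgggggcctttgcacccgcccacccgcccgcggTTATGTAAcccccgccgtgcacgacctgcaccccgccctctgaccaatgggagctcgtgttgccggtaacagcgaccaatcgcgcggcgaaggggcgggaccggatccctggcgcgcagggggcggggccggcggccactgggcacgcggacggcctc

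Per3 held the D-box TTATGTAA at 2 places, which 0.0213% of all windows did (0.938% held at least 1). Nr1d1 held 1 E'-box, with first base at -28 (4.68% of windows). The RRE letters TAGGTCA (2.61% of windows) were found in Arntl, past the second of its 2 starts, and that stretch is shown because Arntl is the gene that REV-ERB proteins repress.
Arntl, chr7:113207531-113207557, plus strand: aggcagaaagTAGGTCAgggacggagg
The letters TTACGTAA and TGGGTCA were in none of these windows, against 0.119% and 3.98% of all windows, and the windows of Dbp, Nr1d2 and Npas2 held no match. The map of motif matches places all 10 of them. A match describes letters in a window; binding was not measured.

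**Figure D1:**
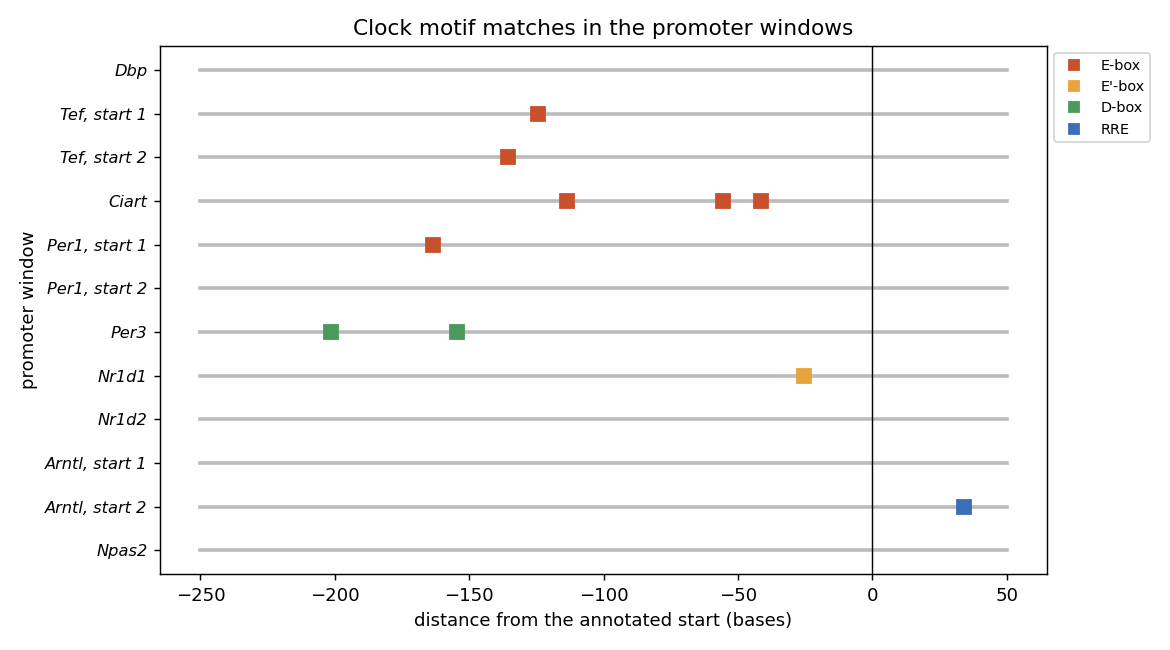
Positions of clock motif matches in the RefSeq promoter windows of 9 clock genes; the x axis is the distance from the annotated start in bases, each grey line is 1 window of 250 bases before to 50 after a start, and squares mark matches by motif. Ciart carries 3 E-boxes, Tef 1 at each of 2 starts and Per1 1, while the match in Arntl is an RRE past its start.

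Ciart (ENSMUSG00000038550, chromosome 3, 95878500 to 95882257, GRCm38.p6), which encodes a repressor of the CLOCK and ARNTL dimer, had the largest difference of the 10 between P56 and P1. Its TSS level was 27.8, 35.6 and 39.4 CPM in the P1 libraries, 27.8, 29.5 and 41.0 at P14 and 63.4, 98.6 and 74.6 at P56, in the order of replicates 1, 2 and 3. Every P56 library lay above every P1 and P14 library (10.9% of all regions had P56 above P1 throughout, and 13.2% the reverse). The fitted level at P56 was 2.32-fold that at P1, a log2 change of 1.21 ± 0.226 (SE, n = 3 libraries a stage). The change stayed between 1.01 and 1.35 when any 1 of the 9 libraries was left out, and was 0.85 without both P1 replicate 1 and P56 replicate 2.

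Dbp (ENSMUSG00000059824, chromosome 7, 45705100 to 45710203), an output factor of the clock, had 46.5, 78.8 and 124 CPM at P1, 93.3, 78.0 and 102 at P14 and 109, 269 and 104 at P56. P56 replicate 2 stood far above the other P56 libraries, and P1 replicate 3 lay above both of those, so the P1 and P56 libraries overlapped. The means were 83.1 ± 38.9 CPM (SD over 3 libraries) for P1 and 161 ± 93.7 for P56, a log2 change of 0.98 ± 0.263 (SE), which shrank to 0.37 without P56 replicate 2 and to 0.041 without that library and P1 replicate 1. Tef (ENSMUSG00000022389, chromosome 15, 81802673 to 81826863), its relative, had 53.5, 92.5 and 109 CPM at P1, 74.4, 88.6 and 92.2 at P14 and 104, 204 and 157 at P56. The highest P1 library of Tef was again replicate 3, above P56 replicate 1. Its log2 change of 0.88 ± 0.210 became 0.62 without P56 replicate 2 and 0.33 without both libraries.

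The period genes, whose products repress the activating dimer, differed among themselves. Per1 (ENSMUSG00000020893, chromosome 11, 69095108 to 69109965) had 64.7, 109.6 and 103 CPM at P1, 81.1, 82.3 and 67.6 at P14 and 115, 266 and 148 at P56. Over all regions 10.9% had P56 above P1 throughout (13.2% the reverse), and 7% had P56 above P14 (6.96% the reverse). In Per1 no P56 library was below a P1 or P14 library. Its log2 change from P1 to P56 was 0.95 ± 0.213, or 0.52 without P56 replicate 2 and 0.29 without both libraries. Per2 (ENSMUSG00000055866, chromosome 1, 91415977 to 91459351) had 46.9, 71.3 and 63.5 CPM at P1, 54.4, 61.2 and 65.6 at P14 and 65.2, 79.0 and 69.9 at P56, and its stages overlapped throughout. Its log2 change was 0.25 ± 0.196, the smallest of the 8 E-box targets, and 0.076 without P1 replicate 1 and -0.0078 without both libraries. Per3 (ENSMUSG00000028957, chromosome 4, 150997018 to 151044707) had 56.9, 61.0 and 62.5 CPM at P1, 49.98, 44.3 and 47.1 at P14 and 60.8, 105 and 78.1 at P56. Here every P14 library lay below every P1 library, as in 7.87% of all regions, and below every P56 library, while P1 and P56 overlapped (log2 change 0.44 ± 0.197, or 0.20 without P56 replicate 2 and 0.14 without both libraries).

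Nr1d1 (ENSMUSG00000020889, chromosome 11, 98767932 to 98775377) and Nr1d2 (ENSMUSG00000021775, chromosome 14, 18204056 to 18239106) are the nuclear receptors that repress Arntl. Nr1d1 had 51.7, 67.2 and 82.4 CPM at P1, 56.6, 63.3 and 59.4 at P14 and 81.0, 126 and 71.1 at P56, and the log2 change from P1 to P56 was 0.48 ± 0.204, or 0.19 without P56 replicate 2 and 0.0095 without both libraries. Nr1d2 had 32.2, 92.5 and 97.1 CPM at P1, 43.3, 54.8 and 53.3 at P14 and 70.5, 153 and 92.0 at P56, a change of 0.54 ± 0.265. For both genes P1 and P56 overlapped, and every P14 library was below every P56 library, as in 7% of all regions (6.96% had the reverse). The low P1 value of Nr1d2 was that of replicate 1. Without P1 replicate 1 its change from P1 to P56 was 0.14, and without P56 replicate 2 as well it was -0.26.

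The opposite arm had smaller changes. Arntl (ENSMUSG00000055116, chromosome 7, 113178471 to 113314126), the obligate partner in the activating dimer, had 95.2, 84.3 and 86.6 CPM at P1, 68.9, 97.0 and 102 at P14 and 103, 102 and 89.7 at P56. Npas2 (ENSMUSG00000026077, chromosome 1, 39193702 to 39363240), the stand-in for CLOCK, had 50.8, 65.8 and 52.5 CPM at P1, 53.3, 84.4 and 49.2 at P14 and 46.7, 62.5 and 37.3 at P56. All stages overlapped for both genes, and P56 replicate 2 was not the highest library of either. From P1 to P56 the log2 change was 0.15 ± 0.170 for Arntl and -0.18 ± 0.226 for Npas2. The sign of Arntl's change turned with scaling. It was -0.14 with the factors of the peak table, which moved the median of all regions to -0.30. With loess offsets, which flatten a library's trend over abundance, it was -0.11, and that median was 0.0032.

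**Figure D2:**
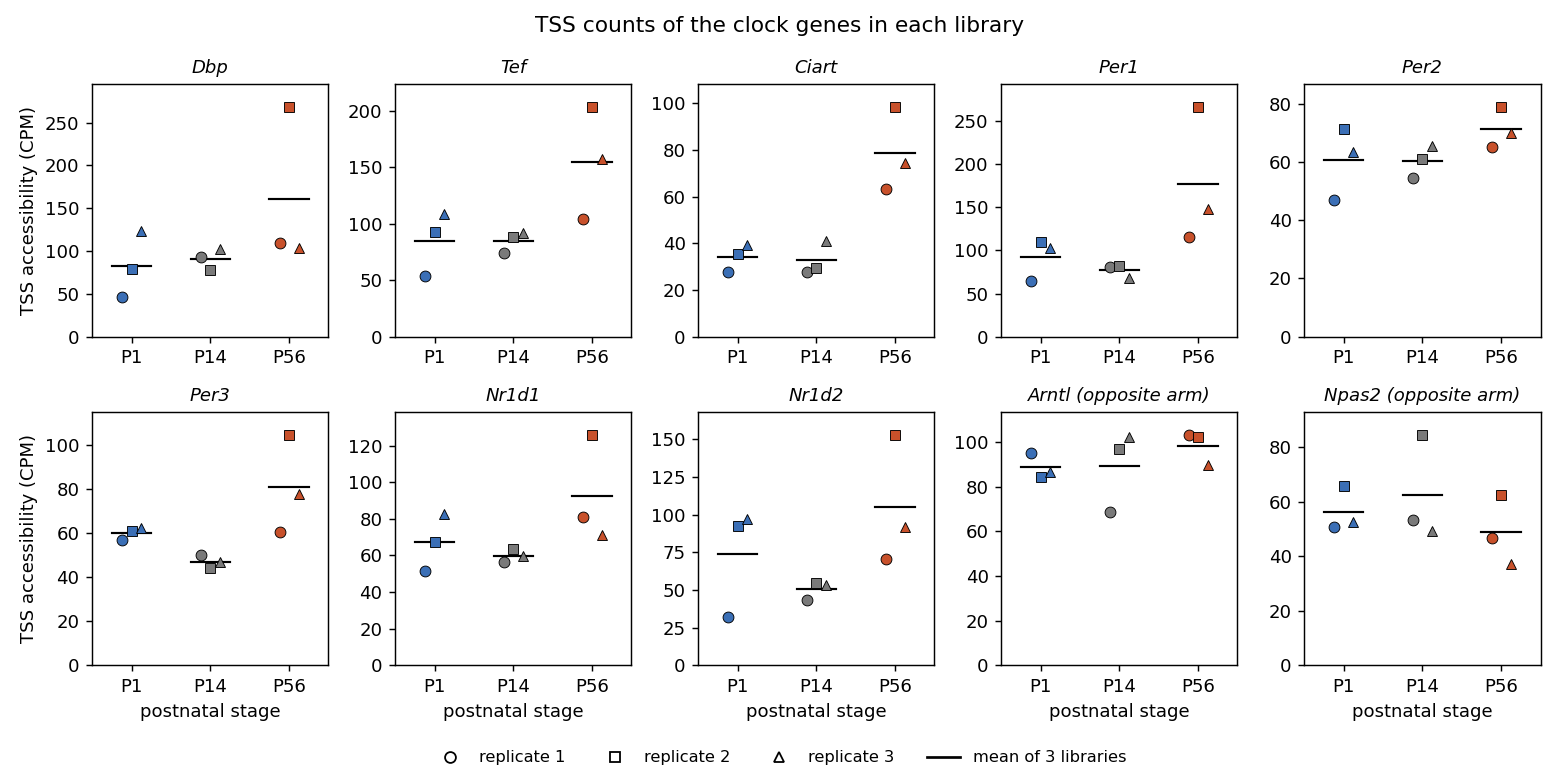
TSS accessibility in CPM (y axis, from 0, a scale of its own for each gene) by postnatal stage (x axis) for the 10 clock genes; each symbol is 1 library, its shape the replicate number, and the bar the mean of 3 libraries. Ciart and Per1 have every P56 library above every P1 library, and the square of P56 replicate 2 is the highest point of all 8 E-box target genes.

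In edgeR's quasi-likelihood test of P56 with P1, 4 of the 8 E-box targets passed an adjusted p of 0.05 upward (Ciart, Per1, Tef and Dbp) and none of the 2 opposite genes passed. Over all 33747 regions 1.72% were called higher at P56 and 0.806% lower (2.53% in all); since the set was chosen on this contrast nothing is read from the count. The median log2 change was 0.71 over the 8 E-box targets, -0.014 over Arntl and Npas2, and -0.0076 over all regions. All 8 were above 0 under each scaling run, except Per2 with the factors of the peak table (-0.027), which moved the median of all regions to -0.30. Of the 10 heart muscle markers 5 were called higher in the same contrast, with a median of 0.84, and their part in the clock values was not tested. Among the clock genes only Ciart kept its call with each of the 9 libraries left out in turn. Per1 lost it without P1 replicate 1 or P56 replicate 2. Tef lost it without P1 replicate 1, P1 replicate 2, P56 replicate 2 or P56 replicate 3. Dbp lost it without any 1 of P1 replicates 1 and 2, P56 replicate 2 or the P14 libraries. The E-box median was 0.28 without P56 replicate 2 and 0.089 without it and P1 replicate 1, where 6 of 8 were above 0 and Ciart alone was called. That last fit called 472 of all regions higher and 191 lower. With that top 10% share of each library as a covariate, 1 of 8 was above 0 (Ciart, 0.23), no clock gene was called, and no region in the table was called in either direction; that share did not overlap between the stages, so the covariate and the stage cannot be told apart.

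By its weights, the contrast of P14 with the midpoint of P1 and P56 is orthogonal to the one that chose the set. Both use the same P1 and P56 libraries, P56 replicate 2 among them, so they are not fully separate. The test asks whether the P14 log2 level differs from the mean of those at P1 and P56. Day 14 is nearer to day 1 than to day 56, so a steady rise with age would lie below this midpoint at P14. The 8 E-box targets also followed each other over the libraries, so their values are not separate results. All 8 E-box targets lay below the midpoint at P14, with a median log2 difference of -0.50 against 0.0080 over all regions, and 51.1% of all regions lay above it. The differences were -0.83 ± 0.282 (SE) for Nr1d2, -0.72 ± 0.216 for Per1, -0.69 ± 0.242 for Ciart and -0.56 ± 0.205 for Per3. They were -0.45 for Tef, -0.41 for Nr1d1, -0.34 for Dbp and -0.13 for Per2. Arntl was at -0.10 ± 0.165 and Npas2 at 0.22 ± 0.216. None of the 10 genes passed edgeR's quasi-likelihood test after adjustment (adjusted p 0.818 to 0.938). DESeq2 and limma-voom called 0 of all 33747 regions in this contrast, so their 0 for the clock genes adds nothing. An unadjusted p below 0.05 in edgeR's test was found for 5 of the 8 E-box targets and 0 of the opposite genes. At that unadjusted threshold 2.71% of all regions lay below the midpoint and 6.05% differed in either direction. The 10 heart muscle markers were all below the midpoint as well (median -0.29, 0 with an unadjusted p below 0.05), and the part of this in the clock values was not tested. In the whole table edgeR's test called 3 regions, or 0.00889%. All 8 stayed below the midpoint in every alternative fit run, but without P56 replicate 2 Dbp was at -0.034, Per1 at -0.50 and Nr1d1 at -0.27. The median was then -0.37, and -0.46 without both libraries, where Nr1d2 was called (-0.83, edgeR adjusted p = 0.0158). In the fit without both libraries 6 of all regions were called above the midpoint and 10 below.

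The remaining contrasts split the interval at P14. They share the P14 libraries with each other and the P1 or P56 libraries with the contrast that chose the set. From P1 to P14 the 8 E-box targets had log2 changes of -0.56 (Nr1d2) to 0.15 (Dbp), with Dbp alone above 0 (Dbp was at -0.0031 with loess offsets and Tef at 0.0014 with DESeq2 size factors), and Arntl and Npas2 had -0.022 and 0.13. None of the 10 passed edgeR's quasi-likelihood test (lowest adjusted p 0.621), and 0.0119% of all regions passed; none had an unadjusted p below 0.05, against 8.59% of all regions. From P14 to P56 all 8 were above 0, from 0.26 (Per2) to 1.299 (Ciart), with Per1 at 1.20 ± 0.238, Nr1d2 at 1.09 ± 0.310 and Dbp at 0.83 ± 0.287. Without P56 replicate 2 these were 0.76, 0.70 and 0.22, and Nr1d1 went from 0.66 to 0.36. In 7 of the 8, every gene but Per2, each P56 library was above each P14 library, which 7% of all regions showed (6.96% showed the reverse). The lowest edgeR adjusted p values were 0.0767 for Per1 and 0.0767 for Ciart, past the threshold for neither, and 0.00296% of all regions passed. An unadjusted p below 0.05 was found for 7 of the 8, against 6.04% of all regions in that direction. Leaving out P1 replicate 1 brought the number of clock genes called to 4, where 40 of all regions were called higher and 1 lower. Leaving out P56 replicate 1 brought it to 3 (98 and 3 of all regions). It was 2 without both P1 replicate 1 and P56 replicate 2 (Ciart and Per1), with 19 and 2 of all regions. Without P56 replicate 2 alone it was 0, and no region in the table was called.

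**Figure D3:**
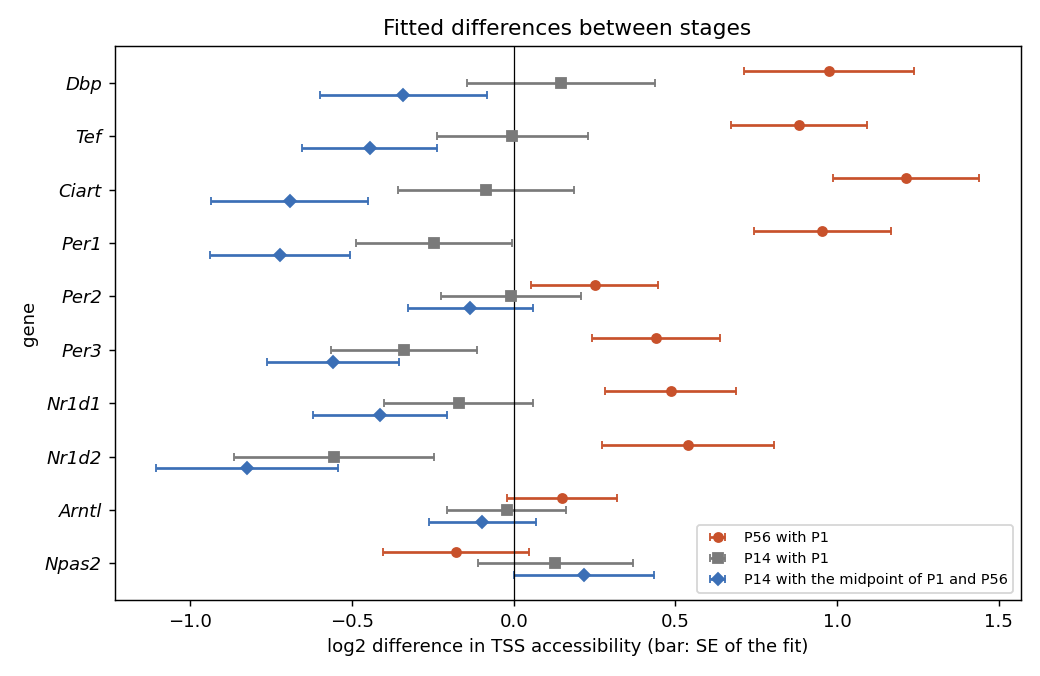
Fitted log2 differences in TSS accessibility (x axis; bars are the SE of edgeR's fit) for each clock gene (y axis) in the comparisons of P56 with P1, P14 with P1, and P14 with the midpoint of P1 and P56. The 8 E-box targets sit right of 0 for P56 with P1 and left of 0 for P14 with the midpoint, while Arntl and Npas2 stay within 0.218 of 0.

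The arms were also set against each other within each library, as the mean log2 CPM of the 8 E-box targets minus that of Arntl and Npas2, which describes the balance of levels and has no test. In bulk nuclei, a region open in more cells and one more open in each cell cannot be told apart. The difference was -0.58, -0.035 and 0.25 in the P1 libraries. It was -0.095, -0.59 and -0.16 at P14, and 0.22, 0.87 and 0.69 at P56. P56 replicate 1 and P1 replicate 3 were close to each other, so P1 and P56 overlapped, and all P14 libraries were below all P56 libraries. The mean over the E-box targets was 6.05 ± 0.418 log2 CPM (SD over 3 libraries) in P1, 5.94 ± 0.0781 at P14 and 6.73 ± 0.443 at P56. That over Arntl and Npas2 was 6.17 ± 0.0709, 6.22 ± 0.285 and 6.13 ± 0.227. The E-box mean spread least between the P14 libraries, but this was not particular to the clock genes. Over the whole TSS table, the P14 libraries also differed least from each other. The chi-square per degree of freedom, larger the more the counts of 2 libraries differ, was 1.06 to 1.096 between P14 libraries. It was 1.48 to 3.03 between P1 libraries and 1.16 to 3.002 between P56 libraries. The part of this in the spread of the E-box mean was not tested.

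**Figure D4:**
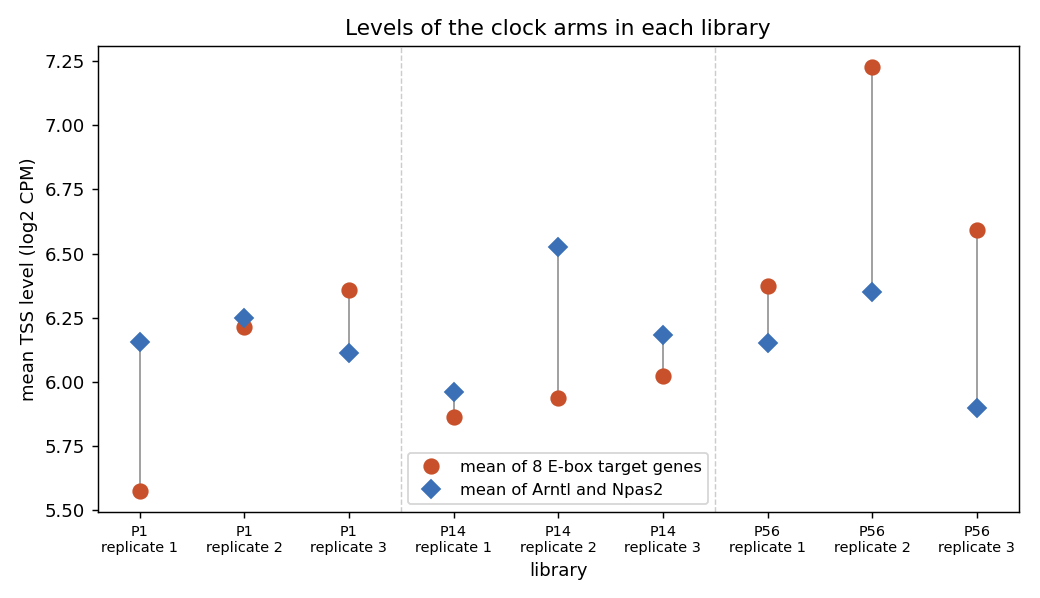
Mean TSS level in log2 CPM (y axis) of the 8 E-box target genes (circles) and of Arntl and Npas2 (diamonds) in each of the 9 libraries (x axis), joined by a grey line; dashed lines divide the stages. The circles run from 5.58 in P1 replicate 1 to 7.23 in P56 replicate 2, and the diamonds from 5.90 to 6.53.

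Within P56, the clock genes differed in how far replicate 2 stood from the other 2 libraries. Its log2 CPM exceeded their mean by 1.32 for Dbp, 1.02 for Per1, 0.91 for Nr1d2 and 0.72 for Nr1d1. The excess was 0.67 for Tef, 0.59 for Per3, 0.56 for Npas2, 0.51 for Ciart, 0.22 for Per2 and 0.088 for Arntl. Over all regions tested the same quantity had a median of 0.011 and quartiles of -0.34 and 0.37. Dbp was at percentile 99.5 of all regions, Per1 at 97.7, Nr1d2 at 96.0, Nr1d1 at 90.9, Tef at 89.2 and Per3 at 86.1. Npas2 was at 84.8, Ciart at 82.4, Per2 at 65.6 and Arntl at 55.9. The mean over the 10 heart muscle markers was 239 CPM in P56 replicate 2 and 97.3 and 129 CPM in replicates 1 and 3; the part of this in the clock values was not tested.

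Across the 9 libraries, the level of each E-box target followed the mean of the other 7, at Pearson r of 0.849 (Per3) to 0.958 (Tef). Against the mean of all 8, Arntl had r = 0.305 and Npas2 r = -0.0930, and the median over all regions was -0.0733. The libraries share stage, depth and the top-region share, and this is a description over points that are not independent. Among the regions most like the mean of the E-box targets, with members, neighbours and predicted genes passed over, were Ppp2r5a (r = 0.992), Rnf139 (0.989), Baz2a (0.985) and Tarbp2 (0.984). Ppp2r5a, a regulatory subunit of protein phosphatase 2A, had 93.0, 116 and 121 CPM at P1, 96.6, 105 and 111 at P14 and 122, 171 and 132 at P56. As in Dbp and Tef, P1 replicate 1 was its lowest library and P56 replicate 2 its highest.

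Dbp lies among genes that also differed. Car11, a carbonic anhydrase-related gene, ends 413 bp before Dbp, and Sphk2, a sphingosine kinase that makes sphingosine 1-phosphate, overlaps the far end of Dbp by 741 bp, with its nearer annotated start 9960 bp from that of Dbp. Car11 had 45.6, 65.1 and 66.2 CPM at P1, 61.1, 73.8 and 57.4 at P14 and 111, 138 and 109.5 at P56. Of all regions, 10.9% had P56 above P1 throughout (13.2% the reverse) and 7% had P56 above P14 (6.96% the reverse). Every P56 library of Car11 was above every earlier one. Its log2 change from P1 to P56 was 1.03 ± 0.183 (edgeR adjusted p = 0.00360) and 0.92 without P56 replicate 2. Sphk2 had 20.9, 30.8 and 27.3 CPM at P1, 45.5, 46.4 and 34.8 at P14 and 55.5, 122 and 78.1 at P56. The stages did not overlap at all, and P14 lay between P1 and P56 (9.02% of all regions had every P14 library above every P1 library). The change from P1 to P56 was 1.72 ± 0.249 (edgeR adjusted p = 0.000540), or 1.35 without P56 replicate 2 and 1.17 without both libraries, and it kept its call in those fits, as did Car11. Sphk2 was examined with its change already known.

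The order of the libraries differed between these genes. The ratio of Sphk2 to Dbp counts was 0.353 ± 0.119 (SD over 3 libraries) for P1, 0.474 ± 0.128 for P14 and 0.572 ± 0.159 at P56, ranging from 0.220 to 0.753 over the libraries. That of Car11 to Dbp ranged from 0.513 to 1.06. No library had equal counts for either pair, so these rows do not hold the same reads throughout; since the width of the TSS region is not stated, a partial overlap was not tested. With P1 replicate 1 and P56 replicate 2 left out, the change from P1 to P56 was 0.041 for Dbp beside 0.73 for Car11.

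**Figure D5:**
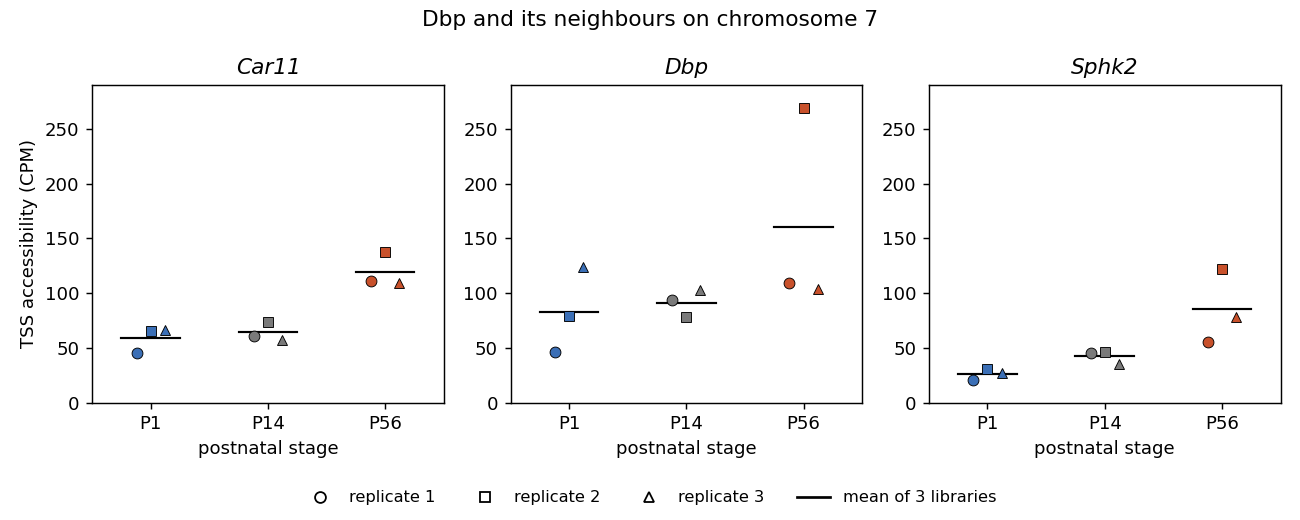
TSS accessibility in CPM (y axis, same scale in each panel, from 0) by postnatal stage (x axis) for Dbp and for Car11 and Sphk2, its neighbours on chromosome 7; each symbol is 1 library and the bar the mean of 3. All P56 libraries of Car11 and Sphk2 lie above their P1 libraries, while Dbp overlaps between these stages.

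Of the other 11 neighbours within 5 kb that had a row, none passed edgeR's test from P1 to P56. Thra, a thyroid hormone receptor gene whose end overlaps that of Nr1d1, had a log2 change of 0.12 ± 0.183 (adjusted p = 0.726), beside 0.48 for Nr1d1. Vamp2, a vesicle fusion gene 2727 bp from Per1, had 0.57 ± 0.217 (0.126). BC028528, 1688 bp from Ciart, had 0.42 ± 0.268 (0.363), and Hes6, beside Per2, had 0.49 ± 0.244 (0.242). The rest were Vamp3 (0.54) and Uts2 (0.26) at Per3, Btbd10 at Arntl (0.24), Gm44469 at Nr1d2 (0.71), and Rpl31 (0.29), Gm20428 (-0.0036) and Gm3617 (-0.30) at Npas2.

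The peak table, counted in the authors' common list of peak regions in the same libraries, held 16 peaks inside or within 5 kb of 8 of the 10 genes, all but Per1 and Nr1d1. Much of this signal overlaps the TSS regions and is not independent of them. The peak over the start of Ciart (chromosome 3, 95881293 to 95883564) had 36.2, 44.4 and 49.1 CPM at P1, 36.8, 40.5 and 53.7 at P14 and 76.2, 111 and 91.8 at P56. Its P56 libraries did not overlap those of the earlier stages, and how many of all peaks showed this was not counted. Its log2 change from P1 to P56 of 1.11 ± 0.272 was the only one of the 16 that edgeR called (adjusted p = 0.0351), where 0.212% of all 25885 peaks were called higher. The call was lost without any 1 of P1 replicates 1 and 2, P56 replicates 2 and 3 or the P14 libraries, at changes of 0.95 to 1.12. The peak over the start of Dbp (chromosome 7, 45703526 to 45708780) had 106, 162 and 237 CPM at P1, 177, 146 and 179.9 at P14 and 214, 405 and 202 at P56, a change of 0.71 ± 0.247 (adjusted p = 0.144).

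Tef had a peak over each of its annotated starts. The peak at the second start (chromosome 15, 81809815 to 81813143) had 56.8, 108 and 134 CPM at P1, 89.4, 115 and 107 at P14 and 134, 229 and 182 at P56, and a log2 change from P1 to P56 of 0.87 ± 0.253 (edgeR adjusted p = 0.0814). The peak at the first start (chromosome 15, 81801714 to 81803735) had a change of 0.42 ± 0.261 (0.423). Both starts carry 1 E-box in the windows above, and the difference between these peaks was not tested. The peaks over the starts of Per3 and Nr1d2 had changes of 0.14 ± 0.287 and 0.27 ± 0.258, and those of Arntl and Npas2 0.074 ± 0.283 and -0.32 ± 0.291. The Nr1d2 peak had 60.9, 149.8 and 154 CPM at P1, 70.1, 80.9 and 85.2 at P14 and 106, 196 and 134 at P56. In the contrast of P14 with the midpoint of P1 and P56 it had the lowest value, -0.77 ± 0.261 (edgeR adjusted p = 0.416). None of the 16 peaks passed there, while 2 lay below the midpoint at an unadjusted p below 0.05; 0.00773% of all peaks passed, and 3.6% lay below at the unadjusted threshold.

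A wider list of 23 other clock genes, chosen with earlier results of these data known, was read in the same fit. Of 13 core genes and kinases 1 rose from P1 to P56, 0 fell and 12 did not pass, with a median of 0.25. Of 10 outputs and modulators 1 rose, 0 fell and 9 did not pass, with a median of 0.48 (1.72% and 0.806% of all regions were called up and down, with a median of -0.0076). The output that rose was Usp2, a deubiquitinase with strong daily rhythm, at 126, 184 and 209 CPM at P1, 136, 177 and 182 at P14 and 235, 507 and 308 at P56. P56 lay above P1 throughout in 10.9% of all regions (13.2% the reverse) and above P14 in 7% (6.96% the reverse). Every P56 library of Usp2 was above every earlier one, and its log2 change was 1.03 ± 0.190 (edgeR adjusted p = 0.00485). The call held whichever single library was dropped, at 0.65 without P56 replicate 2. Csnk1d, a kinase that marks PER proteins for breakdown, had 88.2, 78.8 and 83.5 CPM at P1, 88.9, 139 and 107 at P14 and 110.1, 162 and 123 at P56, a change of 0.66 ± 0.173 (adjusted p = 0.0370). That call was lost when any 1 library other than P14 replicate 2 or P56 replicate 1 was left out, with changes of 0.48 to 0.78 over all 9.

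Wee1, a mitotic kinase under E-box control, came next (0.86 ± 0.271, edgeR adjusted p = 0.0733). The partners and repressors of the core loop had Clock at -0.14 (adjusted p = 0.825), Cry1 at 0.34 (0.489) and Cry2 at 0.27 (0.527). Of the receptors that activate Arntl, Rora was at 0.46 (0.144) and Rorb at -0.41 (0.336). Hlf, the remaining PAR bZIP factor beside Dbp and Tef, had 0.17 (0.646), and Nfil3, which opposes these at D-boxes, 0.68 (0.204). The E-box repressors Bhlhe40 and Bhlhe41 had -0.33 and 0.53, neither past the test. In the contrast of P14 with the midpoint, 0 of the 23 genes passed edgeR's test. There 9 of the 10 outputs and modulators and 5 of the 13 core genes lay below it, with medians of -0.51 and 0.059, and 5 and 0 had an unadjusted p below 0.05, all of them below the midpoint (2.71% of all regions).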

How the data were processed

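Raw read counts of the 9 libraries were deposited in 2 tables, per TSS region (481217 to 2167369 counts a library) and per peak (316311 to 1217798). The authors used featureCounts 1.4.2 and bedtools 2.26, BWA 0.7.10 and MACS 1.4.0, besides SAMtools 1.3.1 and bcl2fastq 2.17.1.14, on GRCm38, per the submitters' processing notes; their roles, read filters, strand use and the width of a TSS region are not given in the sources used here. Every row had a mean of at least 10 counts. Peak coordinates are as deposited.

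Each table was fitted whole in R 4.3.3 by edgeR 4.0.16, with its expression filter (33747 TSS regions and 25885 peaks), TMM scaling, 1 coefficient per stage, the two-sided quasi-likelihood F test and Benjamini-Hochberg adjustment over the table at 0.05. Alternatives used DESeq2 1.42.0 and limma 3.58.1. The members and lists were chosen with earlier results of these data known. Named genes were the members, neighbours with an end within 5 kb, from the wider list those called in a contrast and the 3 with the smallest p, and the 5 regions (mean count at least 20) most like the E-box targets; the other clock genes named were chosen for their roles after their values were seen. Some genes that fall under these rules are not reported here. The scripts were first tested on simulated counts with known changes. Positions came from RefSeq GRCm38.p6.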

Additional observations from a re-analysis of the deposited data

How the results depend on the processing

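The count of clock genes called for P56 with P1 was 4, where 581 of all regions were called higher and 272 lower. It was 1 with loess offsets (123 and 100 of all regions) and 2 with a mean count of at least 20 (153 and 117). DESeq2's Wald test gave 2 (289 and 3), and a fit of only the stages compared gave 1 (142 and 43). With the top-region share as a covariate it was 0 (0 and 0). Dropping both P1 replicate 1 and P56 replicate 2 gave 1 (472 and 191). The count for P56 with P14 was 0, where 1 of all regions was called higher and 0 lower. It was 1 by library size (10 and 1 of all regions) and 2 with the other table's factors (19 and 5). With only those stages it was 2 (23 and 0), and without both libraries 2 (19 and 2). With both left out the count was 1 for P14 with P1, 1 for P14 with the midpoint and 1 for peaks in that contrast, each 0 otherwise in the fit of all libraries. Over all regions, leaving out both gave 193 higher and 100 lower calls for P14 with P1, and 6 and 10 for the midpoint. The E-box median was -0.64 with the covariate and 0.089 without both libraries; that of Arntl and Npas2 was -0.31 with the other table's factors and -0.96 with the covariate. The other clock genes called (2) were 1 by library size, 1 with the other table's factors, 0 with loess offsets, 1 with the higher minimum, 1 with DESeq2's Wald test, 1 with only the stages compared and 0 with the covariate. The peaks called (1) were 2 within 50 kb, 0 with loess offsets, 0 with the higher minimum, 0 with DESeq2's Wald test, 0 with only the stages compared and 0 with the covariate. How many of all peaks were called in the alternative fits was not counted. The cause of these differences was not tested.

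Leaving out each library in turn (with both of the above as well where single genes are given) gave 1 to 4 clock genes called for P56 with P1, 0 to 4 for P56 with P14, an E-box median of 0.28 to 0.93, 1 to 3 other clock genes and 0 to 3 peaks called. Over all regions, higher and lower calls for P56 with P1 ran from 122 and 25 (without P56 replicate 2) to 1164 and 359 (without P56 replicate 1). For P56 with P14 they ran from 0 and 0 to 98 and 3. Signs of small log2 values turned in the same fits: for P14 with P1 the ranges were -0.18 to 0.58 for Dbp, -0.29 to 0.23 for Tef, -0.26 to 0.051 for Ciart, -0.19 to 0.12 for Per2, -0.36 to 0.017 for Nr1d1, -0.13 to 0.17 for Arntl and -0.13 to 0.25 for Npas2. Those of Arntl were -0.017 to 0.28 for P56 with P14 and -0.21 to 0.093 for the midpoint, where Npas2 had -0.047 to 0.34. For P14 with P1, Tef was 0.0014 with DESeq2 size factors, 0.0036 with DESeq2's test and 0.088 with limma-voom, Per2 0.042 with limma-voom, Npas2 -0.012 with the other table's factors, and Dbp -0.0031 with loess offsets and -0.18 without both libraries. With the covariate, P56 with P1 gave -0.77 for Dbp, -0.55 for Tef, -1.09 for Per1, -0.14 for Sphk2, -0.74 for Usp2 and -0.37 for Csnk1d; P14 with P1 gave -0.86 for Dbp and -0.86 for Npas2; P56 with P14 gave -0.095 for Per2. Other scalings moved the median of all regions for P56 with P1 to -0.14 by library size and -0.30 with the other table's factors; higher and lower calls were then 319 and 778, and 202 and 2258.

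Libraries of different stages share only a replicate number: deviations of same-numbered libraries correlated at -0.075 to 0.22. With the replicate block, 5 clock genes were called for P56 with P1, 4 for P56 with P14, 3 other clock genes and 3 peaks. Calls rose over all regions as well, to 1387 higher and 595 lower for P56 with P1 (581 and 272 without the block). For P56 with P14 they rose to 68 and 8 (1 and 0 without it). For P14 with P1 Tef was at 0.069 and Per2 at 0.020 with the block. Not every library correlated best with its own number. The P14 libraries included the shallowest, and how far this limits their contrasts was not tested.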

Other observations

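In a wider window of 50 kb round the clock genes the peak table held 40 peaks, of which 2 were called higher and 0 lower at P56 than at P1 by edgeR's quasi-likelihood test, against 0.212% and 0.232% of all peaks. Beside the one at Ciart, the peak called lay 9896 bp from Per1 (chromosome 11, 69119861 to 69126826, GRCm38). It had 132, 145 and 183 CPM at P1, 191, 184 and 179.9 at P14 and 236, 361 and 299 at P56. Its log2 change was 0.96 ± 0.230 (SE, edgeR adjusted p = 0.0313), beside 0.95 at the Per1 start region. Which gene this peak belongs to was not tested.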
